A study of Homo sapiens with 6 samples.

Results

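Of the genes for proteins that build the mitotic spindle, the centrosome and the cleavage furrow, 38 were followed in parental ZR-75-1 cells, an established human breast cancer line that expresses the oestrogen receptor. They were chosen by name, as spindle, centriole and cytokinesis genes other than kinesins and kinetochore genes, and all 38 symbols matched a row of the table of 60656 genes. The choice was made with earlier results of these data known, so shares set beside those of all genes are descriptions. The cells were grown in RPMI-1640 medium with fetal bovine serum and received 500 nM abemaciclib, an inhibitor of the cyclin-dependent kinases CDK4 and CDK6, or an equal volume of its solvent DMSO, for 4 days. Each group had 3 libraries. The cells are labelled parental, and RB1 knockout derivatives of the line were not analysed here. A single line at a single dose and time was measured, so the values speak for that setting alone.

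The spindle is a bipolar array of microtubules that separates the chromosomes. Its poles are organised by centrosomes, each a pair of centrioles within pericentriolar material that carries the gamma-tubulin rings from which microtubules grow, and the augmin complex adds new microtubules along existing ones. After chromosome separation, a central spindle and a contractile ring split the cell, and the last bridge is cut at the midbody. Many of these genes are known to be transcribed mainly in late S, G2 and M phase, whereas several centriole genes are expressed through most of the cycle. Promoters of the late genes often carry the cell cycle genes homology region (CHR), a short element bound by MuvB-containing complexes such as DREAM, and a CCAAT box. RB and the related pocket proteins, which link CDK4 and CDK6 to these promoters, repress transcription when they are not phosphorylated.

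The libraries were made with a 3′ mRNA kit, so a count stands for a read from the end of a polyadenylated transcript whatever its length. Levels of different genes can be compared only so far as reads were not lost to overlapping genes or copies. Between 3317860 and 4013156 counts fell on genes in each library. Levels are given as CPM, counts scaled to a common total by TMM, which sets most genes equal between libraries. A gene with 0 counts can still be present at up to 3 counts, equal to 0.740 to 0.909 CPM across the libraries, a limit for counting error alone. The cells expressed luminal epithelial markers, with all 8 of KRT8, KRT18, KRT19, EPCAM, CDH1, ESR1, GATA3 and FOXA1 detected and a summed level of 7478 to 9512 CPM. Of these, KRT18 fell, KRT19 and ESR1 rose and the other 5 did not pass the test described below. No marker particular to ZR-75-1 was examined, so the name of the line was not tested. Fibroblast markers summed to at most 15.8 CPM, almost all of it COL1A1, with VIM at 0 counts, and immune and endothelial markers to at most 1.19 and 1.51 CPM. The paper's reporting summary describes RNA-seq of this line and others with abemaciclib and fulvestrant as done once, with independent biological replicates. It does not name these libraries, which had no fulvestrant, and was taken here to cover them. The paper's legend for cell-line RNA-seq with fulvestrant gives 5 days of treatment, against the 4 days stated for these libraries. Whether both belong to the same experiment is not known. If the summary does cover these libraries, the P values measure the spread between cultures of a single experiment.

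With abemaciclib, 28 of the 37 members that could be tested fell, 0 rose and 9 did not pass the test. The falls ran from IQGAP3, a scaffold of dividing cells, with a log2 fold change of −5.85, to TUBG1, the main gamma-tubulin, at −0.45. All 8 cytokinesis genes and 12 of 13 spindle microtubule genes fell, against 2 of 9 centriole and pericentriolar genes. The test was the quasi-likelihood test of edgeR, with P values adjusted over 10863 genes by the Benjamini–Hochberg method and a threshold of 0.05. Of all genes tested, 13.3% were lower by that rule and 12.5% were higher, while 75.7% of the members tested were lower. No member rose at an unadjusted P under 0.05 either (0 of 37), and 0 rose with DESeq2. The median log2 fold change of the members was −2.09, that of all genes tested −0.00178.

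A fall by at least 1 on the log2 scale was called in 23 members and by at least 2 in 19, where 5.94% and 2.09% of all genes tested passed those rules. In 30 of the 37 members every abemaciclib library was below every DMSO library, which held for 20.1% of all genes tested. Of the 28 members that fell, 6 kept under 10% of their DMSO level, 13 kept 10% to 25%, 4 kept 25% to 50% and 5 kept over 50%. In bulk RNA, fewer cells that express a gene and less RNA per cell cannot be told apart. NUSAP1, a microtubule bundling protein, was the member that could not be tested, with 1, 5 and 1 counts in the DMSO libraries and 0, 0 and 1 with abemaciclib. In the annotation used here 86.8% of its exonic bases are shared with other genes on the same strand, and how the counting treated reads that lie in several genes is not stated, so its level is uncertain.

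**Figure D1:**
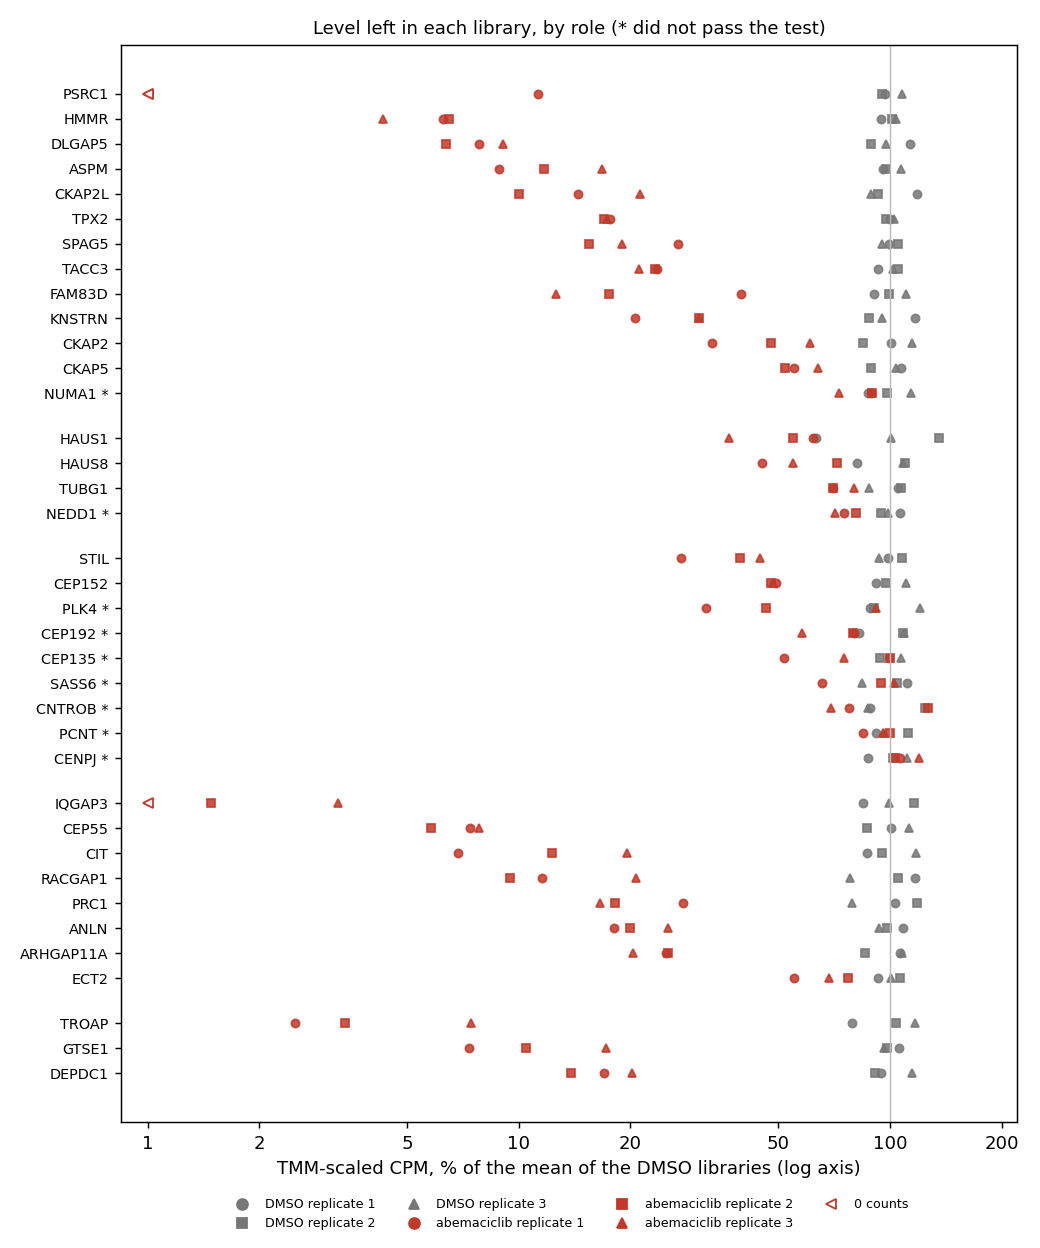
Level of each member in each library as a percentage of the mean of the 3 DMSO libraries (log axis), by role and ordered by fold change. Grey symbols are DMSO and red symbols abemaciclib libraries, with 1 shape per replicate, open triangles at the left edge mark 0 counts, and an asterisk marks a gene that did not pass the test. All 8 cytokinesis genes lie left of their DMSO libraries, as do 3 of the 9 centriole genes. The other centriole genes overlap their DMSO libraries, some of them only in part.

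Before the members are taken by role, their promoter letters are given. The letters were not used to choose the members. Late cell cycle genes are known to carry CHR and CCAAT often, however, so their shares are not independent of the theme chosen. RefSeq promoters (GRCh38.p14, 250 bases before the start site to 50 after it) matched 34 of the 38 members, one of them, CENPJ, by its other name CPAP. TPX2, FAM83D, RACGAP1 and TROAP had no entry. The CHR letters, TTTGAA or TTCGAA on either strand, stood in 21 of the 34 member promoters (61.8%) and in 16.6% of all 27305 promoters. CCAAT, on either strand, stood in 20 of 34 (58.8%) and in 35.7% of all. The letters TTTNNCGC of E2F sites, on either strand, stood in 8 of 34 (23.5%) and in 6.90% of all. No match of one of these motifs overlapped a match of another in the member promoters.

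Of the 20 tested members with CHR letters 17 fell, at a median log2 fold change of −2.43, and of the 13 without them 7 fell, at a median of −0.45. With CCAAT 15 of 19 fell, at a median of −2.27, and without it 9 of 14, at −1.02. The E2F letters went the other way, with 4 of 7 lower among members that hold them, at a median of −0.46, and 20 of 26 among the rest, at −2.12. Letters and role partly overlap. The tested members with E2F letters were SPAG5, TUBG1, HAUS8, STIL, SASS6, CENPJ and CEP192. All of these but SPAG5 are centriole, augmin or gamma-tubulin genes, the roles with the smallest median falls. Members without CHR letters include the centriole genes STIL, SASS6, CENPJ, CNTROB and PCNT, and also TUBG1, NEDD1 and HAUS1. The spindle and cytokinesis genes without CHR letters were TACC3 (−2.14), ARHGAP11A (−2.09), KNSTRN (−1.87), CKAP2 (−1.07) and NUMA1 (−0.25). The splits were not made within role. Ordered by fold change, the 13 members with the largest falls among those with an entry, from IQGAP3 to ANLN, all held the letters, and 7 of the 20 after them did. TACC3 was the first without a match. This order was read from the values and carries no test. A match is a description of letters in this window and not evidence that a factor binds there. No match says only that these letters are not in the window.

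**Figure D2:**
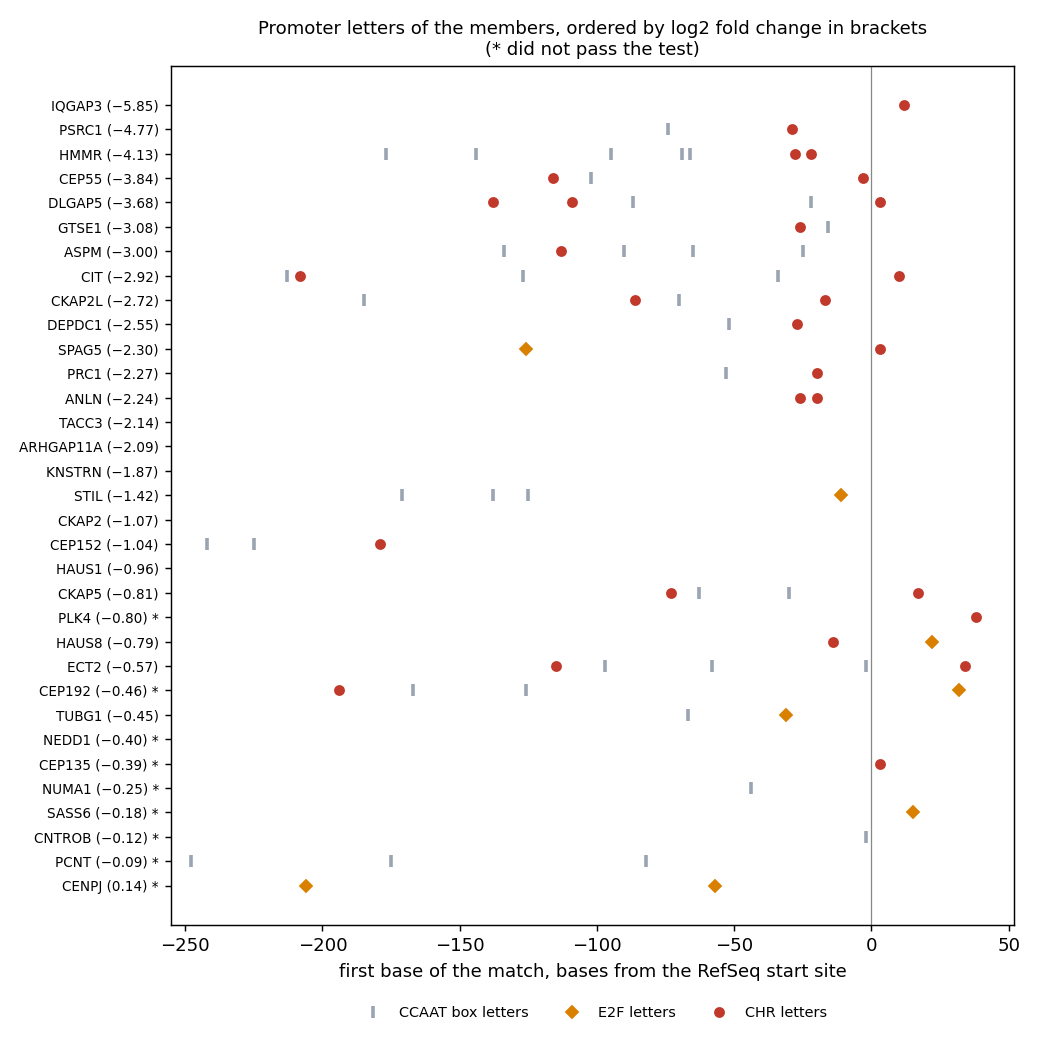
Position of the matches to the CHR, CCAAT and E2F letters in the promoters of the 33 members tested that had a promoter entry, in bases from the RefSeq start site (0), from the largest fall at the top to the smallest at the bottom. Numbers in brackets are log2 fold changes, and an asterisk marks a gene that did not pass the test. Red points (CHR) fill the upper rows from IQGAP3 to ANLN and appear in 7 of the 20 rows below.

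Among the 14 spindle microtubule genes, 12 of the 13 tested fell, with a median log2 fold change of −2.30. The 3 with the largest falls were PSRC1, HMMR and DLGAP5. PSRC1, a microtubule-binding protein that takes part in chromosome alignment (ENSG00000134222, chr1:109279556-109283186, minus strand), had 13.1, 12.8 and 14.5 CPM in the DMSO libraries and 1.51, 0 and 0 CPM with abemaciclib. It fell by 4.77 on the log2 scale (SE 0.63, adjusted P = 9.40e-07). This value rests on 5 counts in abemaciclib replicate 1, and without that replicate both libraries left are at 0. Without abemaciclib replicate 2 or 3 it was −4.16 and −4.22.

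HMMR, a spindle pole protein that helps to place TPX2 on microtubules (ENSG00000072571, chr5:163460203-163491941, plus strand), had 101, 108 and 111 CPM with DMSO and 6.66, 6.91 and 4.59 CPM with abemaciclib. That left 5.67% of the DMSO mean (log2 fold change −4.13 ± 0.19 (SE), adjusted P = 1.99e-16). The groups were far apart, and the spread within each was small beside the gap. DLGAP5, which bundles and stabilises kinetochore fibres, had 43.8, 34.5 and 37.9 CPM with DMSO and 3.03, 2.47 and 3.51 CPM with abemaciclib, or 7.76% of the DMSO mean (log2 fold change −3.68 ± 0.27 (SE), adjusted P = 1.21e-11). HMMR had the largest fall of the spindle genes with TTTGAA, and its promoter is shown because it holds the letters as a tandem pair, with first bases 28 and 22 before the start site (chr5:163460512-163460681, plus strand). The capitals mark the CHR letters.
HMMR: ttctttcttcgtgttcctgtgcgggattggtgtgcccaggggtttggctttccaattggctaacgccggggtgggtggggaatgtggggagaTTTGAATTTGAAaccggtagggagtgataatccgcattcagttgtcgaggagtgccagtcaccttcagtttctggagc

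ASPM, which acts at the minus ends of spindle microtubules and is known for inherited microcephaly, was the most abundant member with DMSO, at 345 ± 21.3 CPM (SD, n = 3). It kept 30.6, 40.5 and 57.8 CPM in the 3 abemaciclib libraries, 12.4% of the DMSO mean. TPX2, which activates Aurora A and starts microtubules near chromosomes, fell from 293 ± 7.21 to 50.8 ± 0.949 CPM (SD, n = 3). TACC3 and CKAP5 form a complex with clathrin that links kinetochore microtubules. TACC3 kept 22.6% of its DMSO mean and CKAP5, a microtubule polymerase also known as ch-TOG, 57.0%. CKAP5 had 123, 102 and 119 CPM with DMSO and 63.2, 60.0 and 73.5 CPM with abemaciclib, without overlap. CKAP2L, SPAG5 and KNSTRN, all spindle or kinetochore-fibre proteins, kept 15.2%, 20.4% and 27.2%, and CKAP2 kept 47.3%. CKAP2 was uneven with abemaciclib, at 31.8, 45.9 and 58.4 CPM, all below the lowest DMSO library at 81.1 CPM.

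FAM83D, which brings casein kinase 1 to the spindle, had 33.1, 36.2 and 40.3 CPM with DMSO and 14.5, 6.42 and 4.59 CPM with abemaciclib. Replicate 1 was the highest of the abemaciclib libraries, and without it the log2 fold change of FAM83D was −2.71 in place of −2.12.

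NUMA1, which anchors dynein at the spindle poles and the cell cortex and is a nuclear protein in interphase, was the 1 spindle gene that did not pass. It had 261, 295 and 342 CPM with DMSO and 266, 268 and 218 CPM with abemaciclib, so the groups overlapped (log2 fold change −0.25 ± 0.11 (SE), adjusted P = 0.0884). Without DMSO replicate 1 it passed, at −0.35 and an adjusted P of 0.0468. With DMSO, NUMA1 overlapped TPX2 in level and held 9.62% to 11.8% of the summed CPM of the members. With abemaciclib it held 21.1% to 27.2% and was the most abundant member in each library. IL18BP lies on the opposite strand at its 3′ end with 2 counts over all libraries, so with the strand setting of the counting not stated its level is given as uncertain. Its promoter is shown as a contrast because it holds no CHR letters (chr11:72080493-72080662, minus strand).
NUMA1: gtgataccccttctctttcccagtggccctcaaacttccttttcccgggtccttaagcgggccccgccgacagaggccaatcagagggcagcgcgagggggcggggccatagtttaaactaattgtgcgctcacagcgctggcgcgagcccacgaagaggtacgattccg

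**Figure D3:**
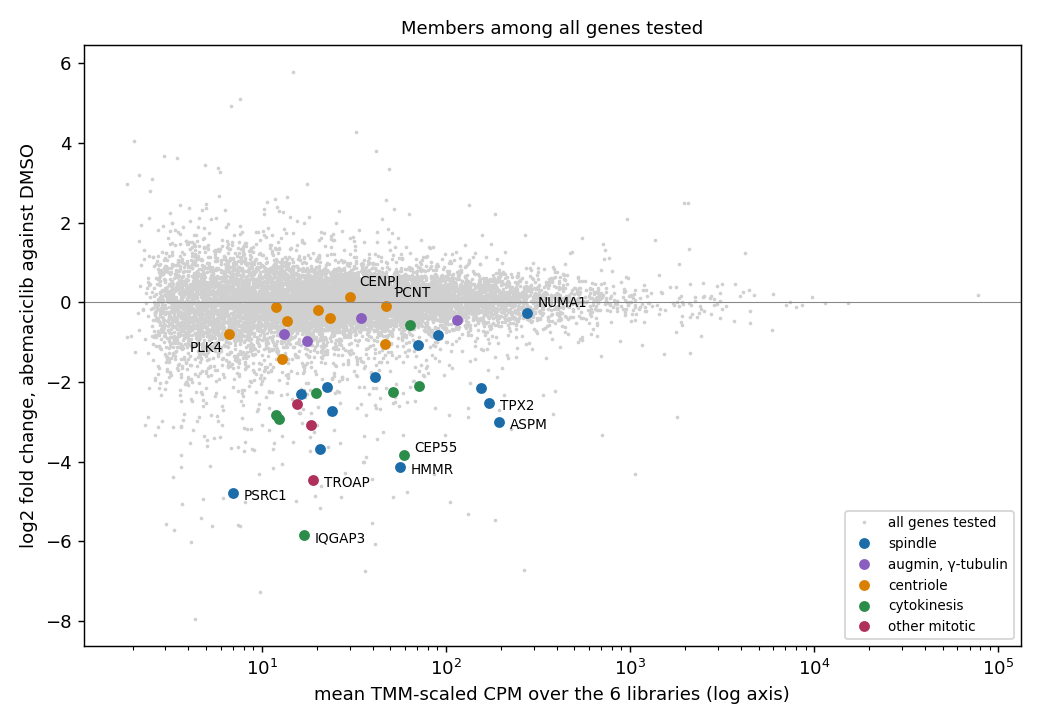
Log2 fold change of abemaciclib against DMSO over the mean CPM of the 6 libraries (log axis) for all 10863 genes tested (grey) and the 37 members tested (colours by role). Members lie below 0 at low levels, as PSRC1 at −4.77 and PLK4 at −0.80, and at high levels, as TPX2 at −2.53 and NUMA1 at −0.25. PLK4 and NUMA1 did not pass the test, and CENPJ is the highest at 0.14.

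The 4 augmin and gamma-tubulin genes changed little beside the spindle genes, and 3 of them fell, none by as much as 1 on the log2 scale. All 4 had every abemaciclib library below every DMSO library, which held for 20.1% of all genes tested. HAUS1, an augmin subunit (ENSG00000152240, chr18:46104378-46128333, plus strand), had 14.8, 31.8 and 23.6 CPM with DMSO and 14.5, 12.8 and 8.65 CPM with abemaciclib (log2 fold change −0.96 ± 0.27 (SE), adjusted P = 0.00947). HAUS8, the augmin subunit that binds microtubules (ENSG00000131351, chr19:17049729-17075625, minus strand), had 13.6, 18.4 and 18.2 CPM with DMSO and 7.56, 12.1 and 9.19 CPM with abemaciclib (log2 fold change −0.79 ± 0.28 (SE), adjusted P = 0.0379). For both genes the highest abemaciclib library lay close under the lowest DMSO library. TUBG1, the gamma-tubulin of the ring complex, had 140, 143 and 117 CPM with DMSO and 93.2, 93.5 and 106 CPM with abemaciclib (log2 fold change −0.45 ± 0.12 (SE), adjusted P = 0.00542).

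HAUS1, HAUS8 and TUBG1 were the called members that missed the threshold under another test, scaling or filter, or with a library left out, where they were tested. Without DMSO replicate 2 none of the 3 passed, with adjusted P = 0.133 for HAUS1, 0.133 for HAUS8 and 0.0508 for TUBG1. HAUS8 also missed the threshold with DESeq2 (adjusted P = 0.102), with no filter on low counts (0.0510) and without DMSO replicate 3 or abemaciclib replicate 1 or 3 (0.111, 0.129 and 0.0703). NEDD1, which brings gamma-tubulin rings to the centrosome and to augmin, had 42.1, 37.4 and 39.1 CPM with DMSO and 29.6, 32.1 and 28.1 CPM with abemaciclib. Its libraries did not overlap, but it did not pass (log2 fold change −0.40 ± 0.17 (SE), adjusted P = 0.0899). The promoter of HAUS8 holds TTTGAA with its first base 14 before the start site (chr19:17075403-17075572, minus strand) and that of NEDD1 holds none of the letters searched (chr12:96907137-96907306, plus strand).
HAUS8: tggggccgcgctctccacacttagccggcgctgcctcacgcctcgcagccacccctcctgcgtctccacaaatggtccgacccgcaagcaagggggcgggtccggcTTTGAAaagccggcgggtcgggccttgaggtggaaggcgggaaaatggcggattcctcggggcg
NEDD1: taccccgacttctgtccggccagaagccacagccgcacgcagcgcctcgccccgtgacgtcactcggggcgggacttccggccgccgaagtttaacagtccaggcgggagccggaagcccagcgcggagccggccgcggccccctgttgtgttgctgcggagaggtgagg

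Of the 9 centriole and pericentriolar genes only STIL and CEP152 fell, and their median log2 fold change was −0.39. STIL, which works with PLK4 and SASS6 at the start of procentriole assembly (ENSG00000123473, chr1:47250139-47314892, minus strand), had 18.6, 20.2 and 17.6 CPM with DMSO and 5.14, 7.40 and 8.38 CPM with abemaciclib. It kept 37.1% of the DMSO mean (log2 fold change −1.42 ± 0.29 (SE), adjusted P = 0.000403). CEP152, a scaffold that recruits PLK4 to the parent centriole (ENSG00000103995, chr15:48712928-48811146, minus strand), had 58.0, 61.5 and 69.7 CPM with DMSO and 31.2, 30.1 and 30.5 CPM with abemaciclib (log2 fold change −1.04 ± 0.16 (SE), adjusted P = 7.59e-06). Both genes were separated between the groups by more than the spread within them.

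PLK4, the kinase that sets centriole number, was the tested member with the lowest DMSO mean, with 7.54, 7.72 and 10.3 CPM in DMSO and 2.72, 3.95 and 7.84 CPM in abemaciclib libraries. Abemaciclib replicate 3 reached the DMSO level, and the log2 fold change was −0.80 ± 0.42 (SE) with an adjusted P of 0.165. Without that replicate it was −1.33 with an adjusted P of 0.0385. At 86 and 54 counts per group, a change of this size was not separable from the spread with all 6 libraries. SASS6, which forms the cartwheel of the new centriole, had 24.1, 22.6 and 18.2 CPM with DMSO and 14.2, 20.5 and 22.2 CPM with abemaciclib. CENPJ, which controls centriole length, had 25.2, 29.4 and 32.1 CPM with DMSO and 30.9, 29.9 and 34.6 CPM with abemaciclib, the 1 member with a positive log2 fold change (0.14 ± 0.19 (SE), adjusted P = 0.651). In both genes the groups overlapped.

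CEP192, which gathers PLK4, Aurora A and pericentriolar material, had 13.1, 17.2 and 17.3 CPM with DMSO and 12.7, 12.6 and 9.19 CPM with abemaciclib, without overlap but short of the threshold (adjusted P = 0.224). CEP135, a protein of the centriole wall, had 26.7, 25.2 and 28.8 CPM with DMSO and 13.9, 26.9 and 20.3 CPM with abemaciclib. Its abemaciclib replicate 2 was within the DMSO range. CNTROB, a daughter centriole protein, had 11.0, 15.4 and 10.9 CPM with DMSO and 9.68, 15.8 and 8.65 CPM with abemaciclib, and its small log2 fold change of −0.12 ± 0.30 (SE) was positive without DMSO replicate 2 or abemaciclib replicate 3. PCNT, the large scaffold of the pericentriolar material, had 45.0, 54.7 and 47.3 CPM with DMSO and 41.4, 48.9 and 47.0 CPM with abemaciclib (log2 fold change −0.09 ± 0.15 (SE), adjusted P = 0.714). Its groups overlapped. These misses do not show that the levels were equal.

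The promoters of this group are shown because most of its members did not pass the test. STIL, which had the largest fall of the group, holds no CHR letters (chr1:47314098-47314267, minus strand). It has CCAAT at 3 places, all farther out than the printed stretch, and the E2F letters 11 bases before the start. CEP152 (chr15:48811020-48811269, minus strand) and CEP192 (chr18:12991162-12991411, plus strand) hold TTTGAA, read on the other strand as TTCAAA, 179 and 194 bases before it, and both are printed from 200 bases before the start. PLK4 (chr4:127880773-127880942, plus strand) and CEP135 (chr4:55948825-55948994, plus strand) hold it 38 and 3 bases after the start. SASS6 (chr1:100132881-100133050, minus strand), CENPJ (chr13:24922812-24922981, minus strand), CNTROB (chr17:7931961-7932130, plus strand) and PCNT (chr21:46324036-46324205, plus strand) hold none. Capitals mark the CHR letters.
STIL: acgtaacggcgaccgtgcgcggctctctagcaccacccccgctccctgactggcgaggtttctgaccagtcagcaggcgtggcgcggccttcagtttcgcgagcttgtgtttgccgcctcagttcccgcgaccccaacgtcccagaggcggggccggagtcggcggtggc
CEP152: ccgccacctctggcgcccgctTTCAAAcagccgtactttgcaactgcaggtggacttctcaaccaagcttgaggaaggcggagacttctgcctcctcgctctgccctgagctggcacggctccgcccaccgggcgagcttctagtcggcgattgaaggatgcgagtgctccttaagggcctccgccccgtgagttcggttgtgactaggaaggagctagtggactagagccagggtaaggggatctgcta
CEP192: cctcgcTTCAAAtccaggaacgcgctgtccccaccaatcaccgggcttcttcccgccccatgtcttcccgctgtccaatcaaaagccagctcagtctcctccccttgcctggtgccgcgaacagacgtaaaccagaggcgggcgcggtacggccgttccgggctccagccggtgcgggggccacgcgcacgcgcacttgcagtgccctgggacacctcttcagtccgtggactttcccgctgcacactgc
PLK4: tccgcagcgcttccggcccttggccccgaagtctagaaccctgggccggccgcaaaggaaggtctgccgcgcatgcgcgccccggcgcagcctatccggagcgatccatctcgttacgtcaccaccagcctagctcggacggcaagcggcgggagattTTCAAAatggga
CEP135: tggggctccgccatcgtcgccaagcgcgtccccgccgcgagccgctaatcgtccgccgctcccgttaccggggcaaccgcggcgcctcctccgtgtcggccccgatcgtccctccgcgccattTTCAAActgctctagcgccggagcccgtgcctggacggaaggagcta
SASS6: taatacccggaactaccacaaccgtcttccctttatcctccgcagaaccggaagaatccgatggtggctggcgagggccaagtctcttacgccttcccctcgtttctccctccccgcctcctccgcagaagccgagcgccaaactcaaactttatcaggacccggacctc
CENPJ: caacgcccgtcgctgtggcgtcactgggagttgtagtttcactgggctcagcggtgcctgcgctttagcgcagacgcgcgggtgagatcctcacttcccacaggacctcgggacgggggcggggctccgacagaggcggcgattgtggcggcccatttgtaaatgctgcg
CNTROB: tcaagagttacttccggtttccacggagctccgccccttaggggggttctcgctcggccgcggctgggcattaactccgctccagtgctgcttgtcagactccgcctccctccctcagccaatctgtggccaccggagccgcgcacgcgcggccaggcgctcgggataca
PCNT: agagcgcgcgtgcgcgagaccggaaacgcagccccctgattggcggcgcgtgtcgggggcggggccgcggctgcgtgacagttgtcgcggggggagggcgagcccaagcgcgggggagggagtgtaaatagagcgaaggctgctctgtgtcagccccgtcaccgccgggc

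All 8 cytokinesis genes fell, with a median log2 fold change of −2.55, and 7 of them by at least 2. IQGAP3, a scaffold protein of dividing cells (ENSG00000183856, chr1:156525405-156572604, minus strand), had 28.1, 38.6 and 33.0 CPM with DMSO, from 97, 130 and 109 counts. With abemaciclib it had 0, 2 and 4 counts, or 0, 0.493 and 1.08 CPM, at or near the level that a count of 0 allows. Its log2 fold change was −5.85 ± 0.42 (SE), the largest fall of the members (adjusted P = 6.98e-12), and −6.76 without abemaciclib replicate 3. CEP55, which recruits the abscission machinery to the midbody (ENSG00000138180, chr10:93496612-93529092, plus strand), had 112, 95.9 and 124 CPM with DMSO and 8.17, 6.42 and 8.65 CPM with abemaciclib (log2 fold change −3.84 ± 0.18 (SE), adjusted P = 6.06e-16). CIT, the citron kinase that organises the midbody (ENSG00000122966, chr12:119685791-119877320, minus strand), had 19.1, 21.1 and 26.0 CPM with DMSO and 1.51, 2.71 and 4.32 CPM with abemaciclib (log2 fold change −2.92 ± 0.34 (SE), adjusted P = 1.35e-07).

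RACGAP1 and PRC1 belong to the central spindle, the first as part of centralspindlin and the second as the bundler of antiparallel microtubules. RACGAP1 kept 13.9% of its DMSO mean and PRC1 20.8%. ANLN, which links actin, myosin and septins in the contractile ring, kept 21.1%, and ARHGAP11A, a GTPase-activating protein for RhoA, 23.5%. ECT2, the exchange factor that activates RhoA at the equator, kept 66.9%, the smallest fall of the group. ECT2 had 71.1, 81.7 and 76.9 CPM with DMSO and 42.4, 59.0 and 52.4 CPM with abemaciclib, without overlap (log2 fold change −0.57 ± 0.14 (SE), adjusted P = 0.00372).

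PRC1 shares 57.6% of its exonic bases with another gene on the same strand and 34.3% with genes on the opposite strand, among them PRC1-AS1 at its 3′ end, and AQP6 lies opposite the 3′ end of RACGAP1. ARHGAP11A shares 30.3% of its exonic bases with a readthrough gene. ARHGAP11A also has a partial copy, ARHGAP11B. These 3 levels are therefore given as uncertain, although PRC1-AS1 had 2 counts and AQP6 0 counts over all libraries. IQGAP3 had the largest fall of the cytokinesis genes, and its promoter holds the CHR letters 12 bases after the start site (chr1:156572516-156572685, minus strand), again read on the other strand as TTCAAA.
IQGAP3: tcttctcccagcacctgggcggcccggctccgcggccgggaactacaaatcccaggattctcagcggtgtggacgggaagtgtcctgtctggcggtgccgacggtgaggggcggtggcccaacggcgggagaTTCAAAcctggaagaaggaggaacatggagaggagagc

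The remaining 3 genes, TROAP, GTSE1 and DEPDC1, fell together, with a median log2 fold change of −3.08. TROAP, a microtubule-associated protein of the spindle poles (ENSG00000135451, chr12:49323236-49331731, plus strand), had 28.7, 37.7 and 42.4 CPM with DMSO and 3, 5 and 10 counts with abemaciclib, a mean of 1.61 ± 0.956 CPM (SD, n = 3; log2 fold change −4.45 ± 0.33 (SE), adjusted P = 1.60e-11). GTSE1, which binds growing microtubule ends and restrains the depolymerase MCAK and p53 (ENSG00000075218, chr22:46296870-46330810, plus strand), had 34.8, 32.4 and 31.8 CPM with DMSO and 2.42, 3.45 and 5.67 CPM with abemaciclib (log2 fold change −3.08 ± 0.28 (SE), adjusted P = 1.23e-09). DEPDC1 had 25.2, 24.4 and 30.6 CPM with DMSO and 4.54, 3.70 and 5.40 CPM with abemaciclib (log2 fold change −2.55 ± 0.28 (SE), adjusted P = 4.00e-08). In all 3 the abemaciclib libraries lay far below the DMSO libraries, and replicate 3 was the highest of them. The promoter of GTSE1 holds the CHR letters 26 bases and CCAAT 16 bases before the start site (chr22:46296750-46296919, plus strand).
GTSE1: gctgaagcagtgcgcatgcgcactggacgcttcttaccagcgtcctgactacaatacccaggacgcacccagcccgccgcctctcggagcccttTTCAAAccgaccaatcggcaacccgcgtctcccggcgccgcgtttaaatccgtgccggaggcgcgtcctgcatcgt

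Pseudogene copies are annotated for DLGAP5, CKAP2, CKAP2L, TUBG1, HAUS1, HAUS8, RACGAP1 and DEPDC1. These copies had 0 counts over all libraries, and reads that the counting could have discarded as ambiguous are not visible here, so these levels are also uncertain to that extent.

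The 38 members together had 2717, 2746 and 2891 CPM in the DMSO libraries and 977, 1045 and 1035 CPM in the abemaciclib libraries, or 36.6% of the DMSO mean. Summed by role, 10.4% was left of the group of TROAP, GTSE1 and DEPDC1, 23.6% of the cytokinesis genes and 32.3% of the spindle microtubule genes. Of the augmin and gamma-tubulin genes 70.1% was left and of the centriole genes 74.3%. The makeup of the sum moved with this. Cytokinesis genes went from 17.8% to 11.5% of it and centriole genes from 8.80% to 17.9%. Without NUMA1, 30.9% of the summed level of the others was left.

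**Figure D4:**
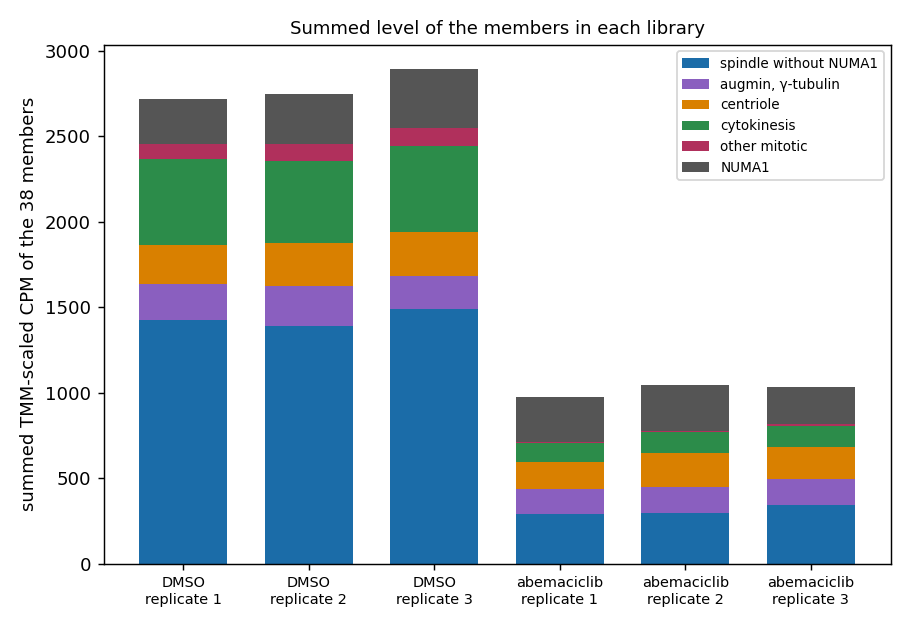
Summed CPM of the 38 members in each of the 6 libraries, stacked by role with NUMA1 apart. The sum drops from between 2717 and 2891 CPM with DMSO to between 977 and 1045 CPM with abemaciclib, while the NUMA1 segment stays between 218 and 342 CPM.

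The abemaciclib libraries did not rank alike over the members. Of the 28 members that fell, 15 were highest in abemaciclib replicate 3, 8 in replicate 1 and 5 in replicate 2. Replicate 3 also stood farthest from the other abemaciclib libraries over all genes, with a chi-square per degree of freedom of 7.46 and 7.95, against 3.57 between replicates 1 and 2 and 22.5 to 26.9 between groups. Its part in the members' values was not tested beyond leaving it out. Without it, 28 members were lower and 0 higher, with PLK4 in and HAUS8 out, and the median over the members was −1.95 on the log2 scale.

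Other genes with the same roles were listed from general knowledge and not picked for how they moved. Earlier results of these data were known when the lists were written, so the contrast with the members is a description. Of 104 such genes 100 were tested, 31 fell and 4 rose, and their median log2 fold change was −0.22. All counts below are by the rule that called 13.3% of all genes lower and 12.5% higher. Of 35 further centriole and pericentriolar genes tested 9 fell and 1, CETN2, rose, with a median of −0.14. CCP110, which caps centrioles, had the largest fall at −1.10 ± 0.16 (SE) (adjusted P = 3.47e-06). ALMS1, the protein lost in Alström syndrome, and SCLT1, of the centriole's distal appendages, followed with log2 fold changes of −1.01 and −0.92. The share that fell was 25.7% here and 22.2% among the 9 centriole members.

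Of 14 other augmin and gamma-tubulin ring genes tested 3 fell and 1 rose. TUBGCP6, a ring subunit, was the one that rose, from 3.77, 3.86 and 5.45 CPM to 5.45, 12.8 and 14.9 CPM (log2 fold change 1.35 ± 0.40 (SE), adjusted P = 0.0134). Its abemaciclib replicate 1 was within the DMSO range, and leaving out DMSO replicate 1 or 2, or abemaciclib replicate 2 or 3, lost its call. TUBGCP3, a core ring subunit, and HAUS2, of augmin, fell with log2 fold changes of −1.19 and −0.84.

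Of 22 other spindle microtubule and pole genes 9 fell and 0 rose (1 at an unadjusted P under 0.05, and 1, CLTC, with DESeq2). GPSM2, which ties NUMA1 to the cell cortex, had the largest fall at −3.38 ± 0.31 (SE) (adjusted P = 9.33e-10), but CLCC1, with 194 counts, lies opposite its 3′ end, so its level is uncertain. GAS2L3, a linker of actin and microtubules, and STMN1, the microtubule destabiliser stathmin, fell with log2 fold changes of −2.30 and −2.22. STMN1 went from 702, 651 and 587 CPM with DMSO to 138, 129 and 151 CPM with abemaciclib. STMN1 and ALMS1 have pseudogene copies, and HAUS2 faces a gene on the opposite strand at its 3′ end, so these levels are uncertain too.

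Of 29 other cytokinesis and abscission genes 10 fell and 2, SEPTIN9 and CHMP3, rose, with a median log2 fold change of −0.07. The largest changes were falls in DIAPH3, a formin that builds actin filaments (log2 fold change −2.30), CNTRL, the gene of centriolin (−1.67), and MYH10, a non-muscle myosin heavy chain (−1.13). Septins, ESCRT-III subunits and RhoA pathway genes, which also serve cells between divisions, make up most of this list.

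**Figure D5:**
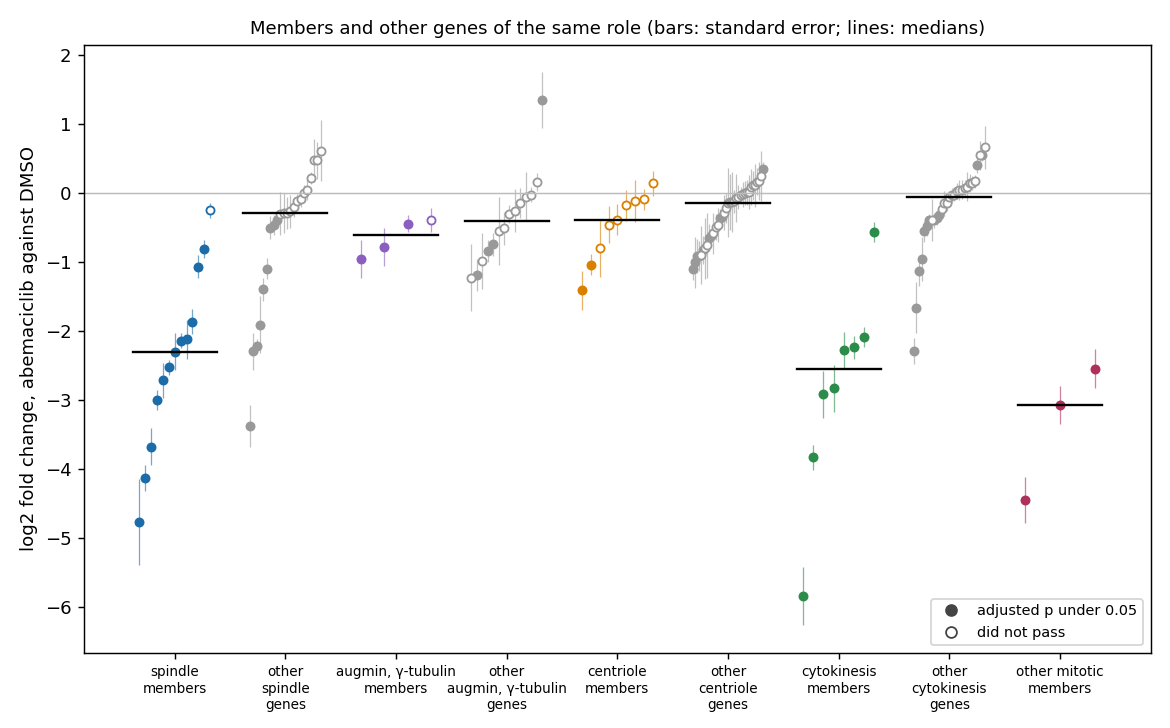
Log2 fold change of abemaciclib against DMSO for the members of each role (colours) and for the other genes of the same role (grey), with SE bars and black lines at the medians. Filled points passed the test and open points did not. Members for the spindle and for cytokinesis have medians of −2.30 and −2.55, and the other genes of those roles −0.29 and −0.07.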

How the data were processed

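The 6 libraries of parental ZR-75-1 cells were grouped by the treatment in their labels. Per the paper and the submitters' processing notes, the authors trimmed single-end reads (BBDuk), mapped them on hg38 (STAR 2.7.5b) and counted them per gene with featureCounts (2.0.1) on GENCODE 35. The deposited values are raw counts per gene, without normalization. Whether the counting used strand is not given in the sources used here. Symbols, positions and overlaps were taken from GENCODE 44 on the same assembly, and promoters from RefSeq (GRCh38.p14).

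Counts were filtered with filterByExpr, scaled by TMM and tested with glmQLFit and glmQLFTest of edgeR 4.0.16 in R 4.3.3, with treatment as the only term and Benjamini–Hochberg adjustment over 10863 genes. The SE is the absolute log2 fold change over the root of F. Depth was 3317860 to 4013156 counts per library. Within groups, libraries differed by more than counting noise, so none was another library sequenced again. This does not show that they came from separate cultures.

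The members and gene lists were chosen with earlier results of these data known. Values in every library are given for the 3 members of each role with the largest falls, for members that did not pass, and for members whose call an alternative changed, and other members and further genes of each role by counts and the 3 largest changes. Values of ASPM, CKAP2, FAM83D and STMN1 were added after they were seen. Those of CKAP5, ECT2 and TUBGCP6 in every library are also given outside these rules. Alternatives were DESeq2 1.42.0, its size factors, total counts as scaling, other count filters, a minimum log2 fold change of 1, a replicate block and each library left out in turn.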

Additional observations from a re-analysis of the deposited data

How the results depend on the processing

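The members' calls depended little on the processing. DESeq2's size factors, total counts as scaling and the replicate block left 28 members lower and 0 higher, DESeq2's test and no filter on low counts left 27 and 0, and leaving out each library gave 25 to 29 and 0. The median log2 fold change ranged from −2.13 to −1.95 when a library was left out. With at least 10 counts in every library only 30 members were tested, by construction without those that fell to few counts, which left 22 lower, a median of −1.25, 5 cytokinesis genes lower and 1 of TROAP, GTSE1 and DEPDC1. A minimum log2 fold change of 1 left 645 genes lower and 322 higher of all tested, from 1442 and 1354. By that rule the augmin and gamma-tubulin members had 0 lower, the other centriole genes 2 lower and 0 higher, the other augmin and ring genes 1 lower and the other cytokinesis genes 3 lower and 0 higher. Leaving out a library gave 0 to 3 augmin and gamma-tubulin members lower, 0 to 1 other centriole, 0 to 1 other augmin and ring and 0 to 1 other spindle genes higher, and 6 to 10 other cytokinesis genes lower with 1 to 3 higher. DESeq2 called 1 other spindle gene higher. CNTROB, not called in any setting, ranged from −0.44 to 0.059 when a library was left out, and was positive at 0.059 without DMSO replicate 2 and at 0.046 without abemaciclib replicate 3. The cause of these shifts was not tested where the setting itself does not show it.

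The replicate numbers did not pair the libraries. Deviations from the group means of same-numbered libraries correlated at −0.0681, −0.00266 and −0.124 over genes, and with the replicate block 1280 genes were lower and 1139 higher, the median over the members was −2.08 and no member's call changed. Depth limits the members with few counts, among them PLK4, PSRC1 and IQGAP3.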
